A study of Mus musculus with 12 samples.

Results

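The genes described here are 10 members of the Notch pathway and its Numb regulators: the receptors Notch1, Notch2 and Notch3, the ligands Jag1 and Jag2, the adaptor proteins Numb and Numbl, the DNA-binding factor Rbpj, and the coactivators Maml2 and Maml3. They were picked by gene symbol, and all 10 were found among the 55335 genes of the deposited matrices. Single-nucleus RNA sequencing (snRNAseq) was performed on cortices from 12 mice at postnatal day 21, 6 wild-type (WT) and 6 heterozygous (Het) for MYT1L S710fsX, a frameshift allele of the neuronal transcription factor MYT1L. Each genotype held 3 males and 3 females, and each library was 1 animal. Animals of both genotypes came from a C57BL/6 line and had received AAV9 calling-card vectors with a tdTomato reporter into the ventricles at birth, so that the WT group is not an untreated one. The animals were drawn from a few shared litters, and the labels do not tie an animal to its litter.

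Notch signaling passes between touching cells: a Jagged or Delta ligand on one cell binds a Notch receptor on its neighbour, proteases then free the intracellular part of the receptor, and this fragment joins RBPJ and a Mastermind (MAML) coactivator on DNA to switch genes on. NUMB and NUMBL bind the receptor from inside the cell and promote its removal, and NUMB is best known for its uneven inheritance when neural progenitors divide. In the postnatal brain the pathway is known for its work in astrocytes, oligodendrocyte precursors, vessel walls and the stem cells of the hippocampus.

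Of 78743 nuclear barcodes, 33141 were kept after filters on depth, mitochondrial share and doublets, 14356 from WT and 18785 from Het mice. The kept nuclei held 5055500 to 14036700 counts per animal with a median of 3165 unique molecular identifiers (UMIs) per nucleus, and no barcode occurred in more than 1 library. Nuclei were placed in classes by UMIs of marker genes, none of which is a member, and a class is called "-like" because it rests on those markers alone. The classes held 9578 excitatory-like, 5197 inhibitory-like, 1540 oligodendrocyte-like, 421 oligodendrocyte precursor (OPC)-like, 179 astrocyte-like, 154 vascular-like (endothelial, mural or fibroblast markers) and 110 microglia-like nuclei, and 15962 nuclei were left without a class. An animal entered a class only with 10 or more nuclei of it, which held for all 12 animals in the excitatory-like, inhibitory-like, oligodendrocyte-like and OPC-like classes, for 8 in the astrocyte-like, 7 in the vascular-like and 5 in the microglia-like class. Levels are given as CPM, the counts of a gene in a class of an animal scaled to 1000000 counts of that class and animal, and are compared only within a gene, since they are not corrected for gene length. The vascular-like class was led by fibroblast genes: 4 of its 10 leading genes were fibroblast markers (Bnc2, Slc47a1, Col1a2 and Cped1) and none was an endothelial or mural one. Pooled over animals, its highest fibroblast marker was Bnc2 at 5173 CPM, its highest endothelial marker Flt1 at 393 CPM and its highest mural marker Rgs5 at 121 CPM, with the mural markers Kcnj8 and Higd1b at 0. Which of these cells held the Notch receptors of the class was not tested. The class rule let no nucleus with a rare neuronal marker into a glial or vascular class, so Gad1, Gad2, Neurod2 and Tbr1 are at 0 there by construction. Of the inhibitory list, Erbb4 alone was counted in these 5 classes, pooled over animals at 6354 CPM in oligodendrocyte-like and 5568 CPM in OPC-like nuclei against 8807 CPM in inhibitory-like nuclei. Of the 10 excitatory markers 5 were at 0 in each of the OPC-like, microglia-like, astrocyte-like and oligodendrocyte-like classes, and 6 in vascular-like nuclei. Arpp21 led the counted ones, at 756 CPM in OPC-like, 624.96 in microglia-like and 281 in astrocyte-like nuclei. It was at 121 CPM in vascular-like and 59.8 in oligodendrocyte-like nuclei, against 1885 CPM in excitatory-like nuclei. Whether such counts, those of Erbb4 among them, came from neurons was not tested, nor was the part of neuronal RNA in the levels below.

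Myt1l itself was measured at 883 ± 46 CPM in all nuclei of WT and 985 ± 29 CPM in those of Het mice (SD, n = 6 each), with a log2 fold change of 0.14 (SE 0.05, adjusted p = 0.690, edgeR's quasi-likelihood test). By exact permutation tests on CPM its p was under 0.05 in 6 of 13 units, all higher in Het mice, and some of these units share nuclei. The lowest p was in a group of layer 6 corticothalamic (L6 CT) neurons, where the genotypes did not overlap (1198 ± 58 against 1424 ± 106 CPM, SD, n = 6 each, exact permutation p = 0.00216, adjusted p = 0.310). A frameshift does not by itself take the reads of an allele out of the count, so this level does not check the genotype labels.

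**Figure D1:**
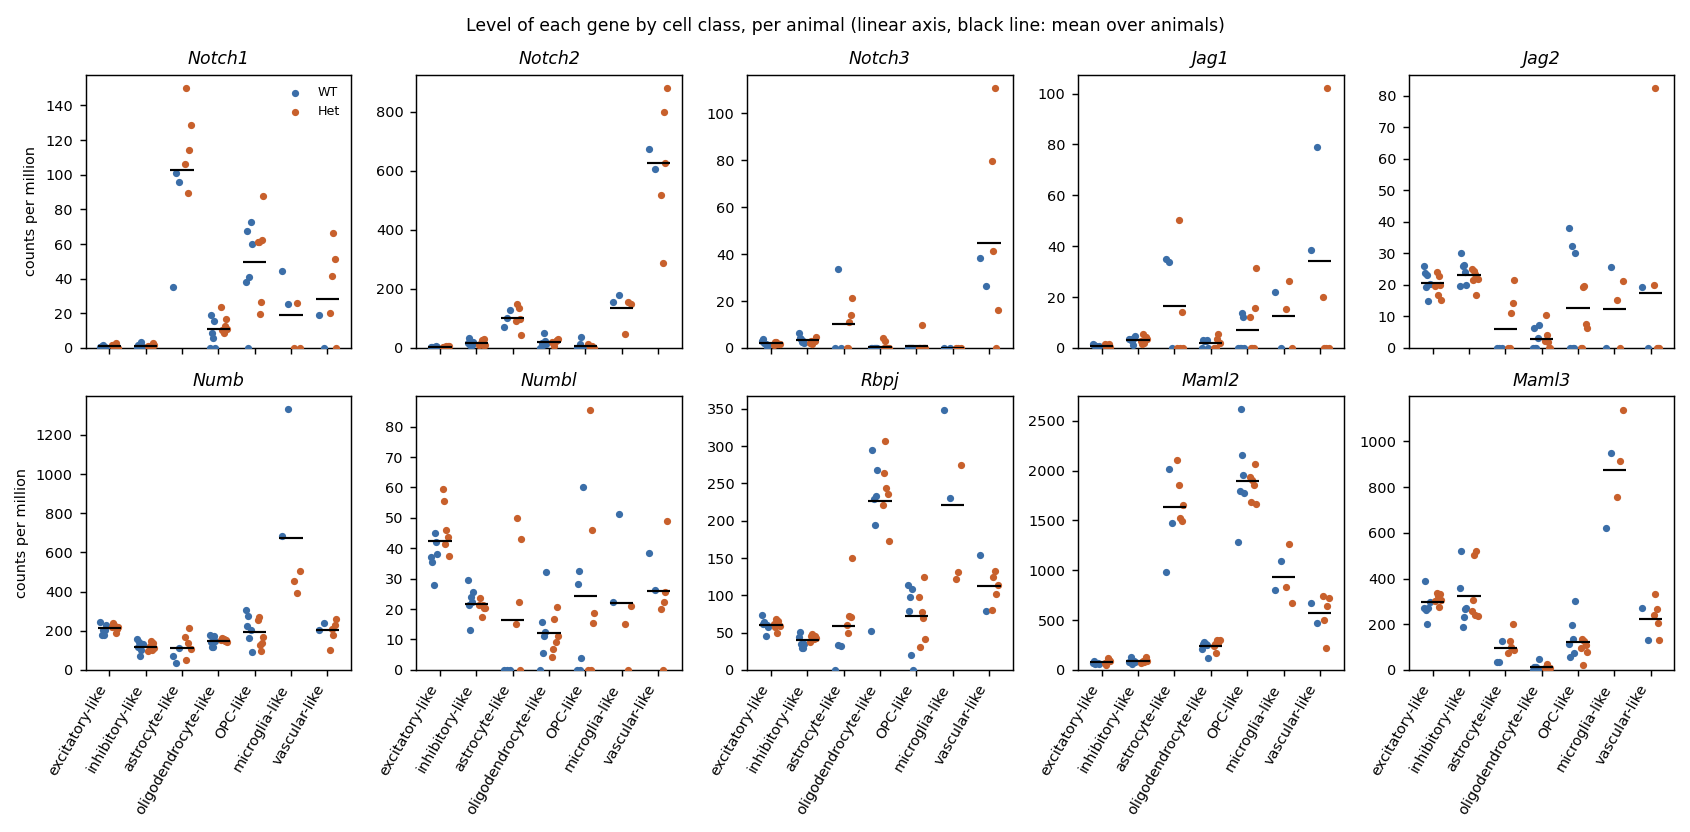
Level of each of the 10 genes (CPM, linear axis from 0) in the 7 cell classes, 1 point per animal with 10 or more nuclei of the class, colored by genotype, with a line at the mean over animals. Notch1 and Maml2 stand highest in astrocyte-like and OPC-like nuclei, Notch2 in vascular-like nuclei, Numbl in excitatory-like nuclei and Maml3 in microglia-like nuclei.

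Promoter sequences of Numb and Numbl are shown because these paralogous adaptors followed different class patterns. Both come from RefSeq promoters of GRCm38.p6, 250 bases before to 50 after a transcript start, written 5′ to 3′ on the strand of the gene, and capitals mark the core motif of the MYT1 family, AAGTT, on either strand (AACTT on the printed one). The Numb sequence is 1 of 3 RefSeq starts and lies at chr12:83921885-83922184 on the minus strand; the Numbl sequence lies at chr7:27258511-27258810 on the plus strand, inside the gene as positioned below, whose annotated start lies before the RefSeq one.
Numb: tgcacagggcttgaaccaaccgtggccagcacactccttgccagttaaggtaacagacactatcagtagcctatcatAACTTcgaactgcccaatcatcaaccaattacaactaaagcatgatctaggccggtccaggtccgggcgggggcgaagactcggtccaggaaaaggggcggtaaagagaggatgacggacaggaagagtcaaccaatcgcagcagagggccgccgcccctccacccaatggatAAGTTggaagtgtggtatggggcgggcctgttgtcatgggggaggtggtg
Numbl: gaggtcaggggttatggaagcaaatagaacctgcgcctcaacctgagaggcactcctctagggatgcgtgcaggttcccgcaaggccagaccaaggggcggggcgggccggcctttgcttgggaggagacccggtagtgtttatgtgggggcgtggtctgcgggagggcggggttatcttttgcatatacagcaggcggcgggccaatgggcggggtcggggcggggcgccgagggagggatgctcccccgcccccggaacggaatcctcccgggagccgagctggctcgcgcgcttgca
The Numb sequence holds 2 matches and the Numbl sequence holds 0. Over the 14 RefSeq promoters of the 10 members, 6 held AAGTT (those of Maml2, Notch2, Notch3 and Numb), beside 39.3% of all 32851 promoters of the same length. The longer motif AAAGTTT, which contains AAGTT, was in 2 member promoters (Notch2 and Numb) and in 4.74% of all. The core of the RBPJ site, TGGGAA on either strand, was in 4 member promoters (Maml2, Maml3 and Rbpj) and in 25.6% of all. These are matches of letters within the windows and describe no binding.

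The receptor Notch1 (chr2:26457903-26516663, minus strand, GRCm38) was highest in astrocyte-like and OPC-like nuclei and near 1 CPM in neurons. Its level over the 8 astrocyte-like animals ran from 35.1 to 150 CPM with a median of 104, on 39 counts in all. In OPC-like nuclei the 12 animals ran from 0 to 87.9 CPM with a median of 60.6. Astrocyte-like exceeded OPC-like nuclei in 7 of 8 animals, which did not pass after adjustment (exact paired permutation p = 0.0156, adjusted p = 0.127), and with nuclei over the upper depth limits added the means were 75.8 and 25.0 CPM. Vascular-like nuclei averaged 28.3 CPM, microglia-like nuclei 19.2 and oligodendrocyte-like nuclei 11.0 ± 7.2 (SD, n = 12). The neuronal means were 1.31 CPM in inhibitory-like and 0.92 CPM in excitatory-like nuclei. The step from oligodendrocyte-like to inhibitory-like nuclei held in 10 of 12 animals (exact paired permutation p = 0.00195, adjusted p = 0.0423).

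Notch2 (chr3:98013527-98150361, plus strand), a receptor known from vessels and immune cells, was highest in vascular-like nuclei, a class led by fibroblast genes. These held 628 ± 193 CPM (SD, n = 7), with a range of 289 to 883 and 205.5 counts. Microglia-like nuclei gave 155 and 179 CPM in WT males 2 and 3, 45.6 and 157 in Het males 1 and 2, and 148 in Het female 1. Every one of these 5 values lay below the lowest vascular-like value. Astrocyte-like nuclei followed at 102 ± 35 CPM (SD, n = 8), and exceeded oligodendrocyte-like nuclei (19.9 ± 13.1, n = 12) in 8 of 8 animals, the smallest p that 8 animals allow (exact paired permutation p = 0.00781, adjusted p = 0.102). Inhibitory-like nuclei were at 16.3 ± 9.1 CPM, OPC-like nuclei at 5.74 and excitatory-like nuclei at 4.37 ± 1.88 (SD, n = 12). The OPC-like value rested on 6 Notch2 counts over 12 animals. With nuclei over the upper depth limits added, the vascular-like mean was 405 CPM and the microglia-like mean 67.5 CPM.

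Notch3 (chr17:32120820-32166852, minus strand), the receptor of mural cells on vessel walls, was sparse. Its highest mean was in vascular-like nuclei, 44.8 ± 38.4 CPM (SD, n = 7) on 14 counts, with 0 in Het female 2 and 111 in Het female 1. That class was led by fibroblast genes and not by mural markers. The 5 microglia-like animals held no Notch3 count, and all 110 microglia-like nuclei together held 2, or 6.18 CPM with an exact Poisson 95% interval of 0.749 to 22.3 that covers counting error only. Inhibitory-like nuclei, at 3.30 ± 1.35 CPM, exceeded excitatory-like nuclei, at 1.96 ± 0.87 CPM, in 11 of 12 animals (exact paired permutation p = 0.00146, adjusted p = 0.0381). A gene on the opposite strand, Gm17276, overlaps Notch3 and held 1932 counts against 290 for Notch3, and how strand was treated in counting is not given in the sources used here, so the low Notch3 levels are uncertain. The same holds for 0610009E02Rik, which overlaps the end of Notch1 with 513.5 counts against 382.

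The ligand Jag1 (chr2:137081456-137116644, minus strand) was rare in every class, and its order over classes was not resolved. Vascular-like nuclei had the highest mean at 34.3 ± 41.6 CPM (SD, n = 7), but it rested on 10 counts, with 0 in 3 of the 7 animals. Its level in neurons was 3.26 ± 1.24 CPM in inhibitory-like and 0.91 ± 0.52 in excitatory-like nuclei (SD, n = 12). Jag2 (chr12:112907819-112929776, minus strand) had its highest means over all animals in neurons. Inhibitory-like nuclei ran from 16.7 to 30.2 CPM with a median of 23.8, and excitatory-like nuclei from 15.1 to 25.9 with a median of 20.2, so the neuron classes overlapped. The other means were 17.4 CPM in vascular-like, 12.8 in OPC-like, 12.4 in microglia-like, 5.86 in astrocyte-like and 2.92 in oligodendrocyte-like nuclei, on 4, 10, 3, 3 and 10 counts. In Het animals the vascular-like mean, 20.5 CPM on 3 counts, was above the excitatory-like mean of 19.7.

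Numb (chr12:83794034-83921934, minus strand) and Numbl (chr7:27258433-27282144, plus strand), the paralogous adaptors that restrain Notch receptors, differed in where they were high. Numb was highest in microglia-like nuclei, with 683 and 1332 CPM in WT males 2 and 3, 456 and 392 in Het males 1 and 2, and 507 in Het female 1. All 5 values lay above the highest excitatory-like value of 244 CPM. With nuclei over the upper depth limits added, the microglia-like mean was 445 CPM over 9 animals, the lowest at 196. Excitatory-like nuclei held 212 ± 22 CPM, oligodendrocyte-like nuclei 149 ± 19 and inhibitory-like nuclei 119 ± 24 (SD, n = 12). Numbl was highest in excitatory-like nuclei, at 42.5 ± 8.6 CPM with a range of 28.0 to 59.4, against 21.7 ± 4.1 CPM and a range of 13.01 to 29.5 in inhibitory-like nuclei (SD, n = 12). Oligodendrocyte-like nuclei had the lowest Numbl mean of the classes, 12.2 ± 8.5 CPM, on 45.8 counts.

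Rbpj (chr5:53466152-53657362, plus strand), the DNA-binding partner of cleaved Notch, was highest in oligodendrocyte-like nuclei at 226 ± 67 CPM (SD, n = 12), where WT male 1 had 52.8 CPM on 3 counts and the other animals had 174 to 307. Microglia-like nuclei were close to them, with 349 and 231 CPM in WT males 2 and 3, 122 and 131 in Het males 1 and 2, and 274 in Het female 1, a mean of 221 that was 114 CPM with nuclei over the upper depth limits added. Vascular-like nuclei held 112 ± 28 CPM (SD, n = 7), excitatory-like nuclei 60.2 ± 7.6 and inhibitory-like nuclei 40.6 ± 7.1 (SD, n = 12). In WT the highest mean was that of microglia-like nuclei, over 2 animals, at 290 CPM against 212 in oligodendrocyte-like nuclei. In Het animals it was that of oligodendrocyte-like nuclei, at 241 CPM against 176 in microglia-like nuclei. Over the 5 shared animals of both genotypes together the exact paired permutation p was 0.5, with 0.0625 the smallest possible. A change of order with genotype was not tested. For the other 9 members the same class had the highest mean in both genotypes.

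The Mastermind coactivators differed in which classes held them. Maml2 (chr9:13297957-13709388, plus strand) was highest in OPC-like and astrocyte-like nuclei, from 1285 to 2616 CPM with a median of 1884 over 12 animals in the former and from 983 to 2107 with a median of 1590 over 8 animals in the latter. Microglia-like nuclei averaged 935 ± 242 CPM (n = 5), vascular-like nuclei 566 ± 183 (n = 7) and oligodendrocyte-like nuclei 243 ± 54 (SD, n = 12). Neurons were far lower, at 87.3 ± 21.3 CPM in inhibitory-like and 76.3 ± 19.8 in excitatory-like nuclei. Oligodendrocyte-like exceeded inhibitory-like nuclei in 12 of 12 animals (exact paired permutation p = 0.000488, the smallest that 12 animals allow; adjusted p = 0.0317). Levels of Maml2 fell where nuclei over the upper depth limits were added, to 916 CPM in OPC-like, 1118 in astrocyte-like and 440 in microglia-like nuclei, which put astrocyte-like above OPC-like nuclei.

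Maml3 (chr3:51685907-52105076, minus strand) was high in neurons and microglia-like nuclei and nearly missing from oligodendrocyte-like nuclei. Microglia-like nuclei held 621 and 948 CPM in WT males 2 and 3, 755 and 915 in Het males 1 and 2, and 1140 in Het female 1. Inhibitory-like nuclei ran from 190 to 520 CPM and excitatory-like nuclei from 200 to 389, with means of 325 ± 122 and 297 ± 47 (SD, n = 12). Oligodendrocyte-like nuclei held 12.1 ± 12.6 CPM on 42.1 counts, the lowest of all classes. Along this lineage the OPC-like mean was 120 ± 72 CPM (SD, n = 12), and 242 CPM with nuclei over the upper depth limits added.

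Each class was then set against the mean of the other 6 by edgeR's quasi-likelihood test with the animal as a block, and a gene was called at an adjusted p under 0.05 and a log2 difference over 1. Of the members, 7 passed the filter on low counts among 7195 genes tested, and Jag1, Jag2 and Notch3 did not. A gene can pass this filter through the classes where it is high, so calls of a higher level are not independent of it. Through which classes each member passed was not checked. The higher calls of Notch1 in astrocyte-like and OPC-like nuclei fall in the classes of its highest levels. So do those of Notch2 in vascular-like, microglia-like and astrocyte-like nuclei. These calls and their p-values therefore describe the levels above and give them no further support. In excitatory-like nuclei 2 of the 7 were higher, Numbl by 1.46 (SE 0.16, adjusted p = 3.04e-13) and Maml3 by 1.43 (SE 0.11), where 18.6% of all genes were called higher. Lower were 3, Notch1 by -3.56 (SE 0.40), Notch2 by -3.09 (SE 0.38) and Maml2 by -2.52 (SE 0.11), beside 11.8% of all genes. In inhibitory-like nuclei Maml3 alone was higher, by 1.44 (SE 0.12), beside 17.3% of genes, and 4 were lower, Notch1 (-3.30), Maml2 (-2.36), Rbpj (-1.15) and Notch2 (-1.04), beside 9.45%. Notch1, Notch2 and Maml2 were thus called lower and Maml3 higher in both neuron classes, though Notch2 in inhibitory-like nuclei was not called with DESeq2 size factors (-0.99) or with no filter on low counts (-0.65). Rbpj there was not called with no filter either (-0.75).

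In astrocyte-like nuclei 3 members were higher, Notch1 by 3.21 (SE 0.37, adjusted p = 4.51e-12), Maml2 by 1.98 (SE 0.13) and Notch2 by 1.48 (SE 0.41), beside 14.8% of genes, and 0 were lower (9.67% of genes). OPC-like nuclei had 2 higher, Maml2 by 2.51 (SE 0.10) and Notch1 by 2.46 (SE 0.31), beside 12.8%, and 1 lower, Notch2 by -3.08 (SE 0.56, adjusted p = 7.6e-06), beside 6.39%. Notch1 and Maml2 were thus called higher in both classes, and Notch2 higher in astrocyte-like and lower in OPC-like nuclei. Astrocyte markers were also counted in OPC-like nuclei, at 19.2 to 50.2 UMIs per 10000 over the 12 animals against 114 to 238 over the 8 astrocyte-like ones. Of the 10 markers Gpc5 led, at 3886 CPM against 8907 CPM in astrocyte-like nuclei, Aqp4 was at 0 and Gja1 at 1.96 CPM, and the part of such RNA in the shared calls was not tested. Oligodendrocyte-like nuclei had 1 higher, Rbpj by 1.84 (SE 0.11), beside 19.5%, and 1 lower, Maml3 by -4.20 (SE 0.25, adjusted p = 3.19e-23), beside 20.7%. Microglia-like nuclei had 3 higher, Maml3 by 2.55 (SE 0.23), Notch2 by 1.85 (SE 0.48) and Numb by 1.64 (SE 0.18), beside 10.7%, and 0 lower (4.61%). Vascular-like nuclei had 1 higher, Notch2 by 4.37 (SE 0.25, adjusted p = 2.74e-24), beside 16% of genes, and 0 lower (16.3%). The neuronal Maml3 calls rested on the nuclei kept: with nuclei over the upper depth limits added, the differences were 0.98 in excitatory-like and 0.76 in inhibitory-like nuclei, under the size asked.

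Of a list of 45 other Notch pathway genes, 20 could be tested in these contrasts. Their counts stand beside the shares of all genes called. In excitatory-like nuclei 5 were higher (18.6% of all genes) and 0 lower (11.8%), among them Neurl1a, a ubiquitin ligase that acts on ligands (3.37, SE 0.19), and Fbxw7, a ubiquitin ligase for the cleaved receptor (1.2, SE 0.09). In inhibitory-like nuclei 5 were higher (17.3%) and 0 lower (9.45%), with Dner, a Notch-binding neuronal membrane protein, at 2.60 (SE 0.09). In astrocyte-like nuclei 2 were higher (14.8%) and 1 lower (9.67%), led by Lfng, the Fringe sugar transferase that tunes which ligand a receptor answers, at 5.32 (SE 0.66), which was also higher in microglia-like nuclei at 3.10 (SE 1.16, adjusted p = 0.0474), where 3 were higher (10.7%) and 0 lower (4.61%). OPC-like nuclei had 5 higher (12.8%) and 0 lower (6.39%), with Lnx1, a ubiquitin ligase for Numb, at 3.23 (SE 0.22). Oligodendrocyte-like nuclei had 1 higher (19.5%), the ubiquitin ligase Itch at 1.54 (SE 0.07), and 3 lower (20.7%), Lnx1 at -4.10 (SE 0.66), Bend6 at -2.51 (SE 0.43) and Dner at -1.38 (SE 0.21). Vascular-like nuclei had 1 higher (16%), Furin, the protease that cuts newly made receptors, at 1.32 (SE 0.52), and 4 lower (16.3%), with Dner at -3.14 (SE 0.41).

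**Figure D2:**
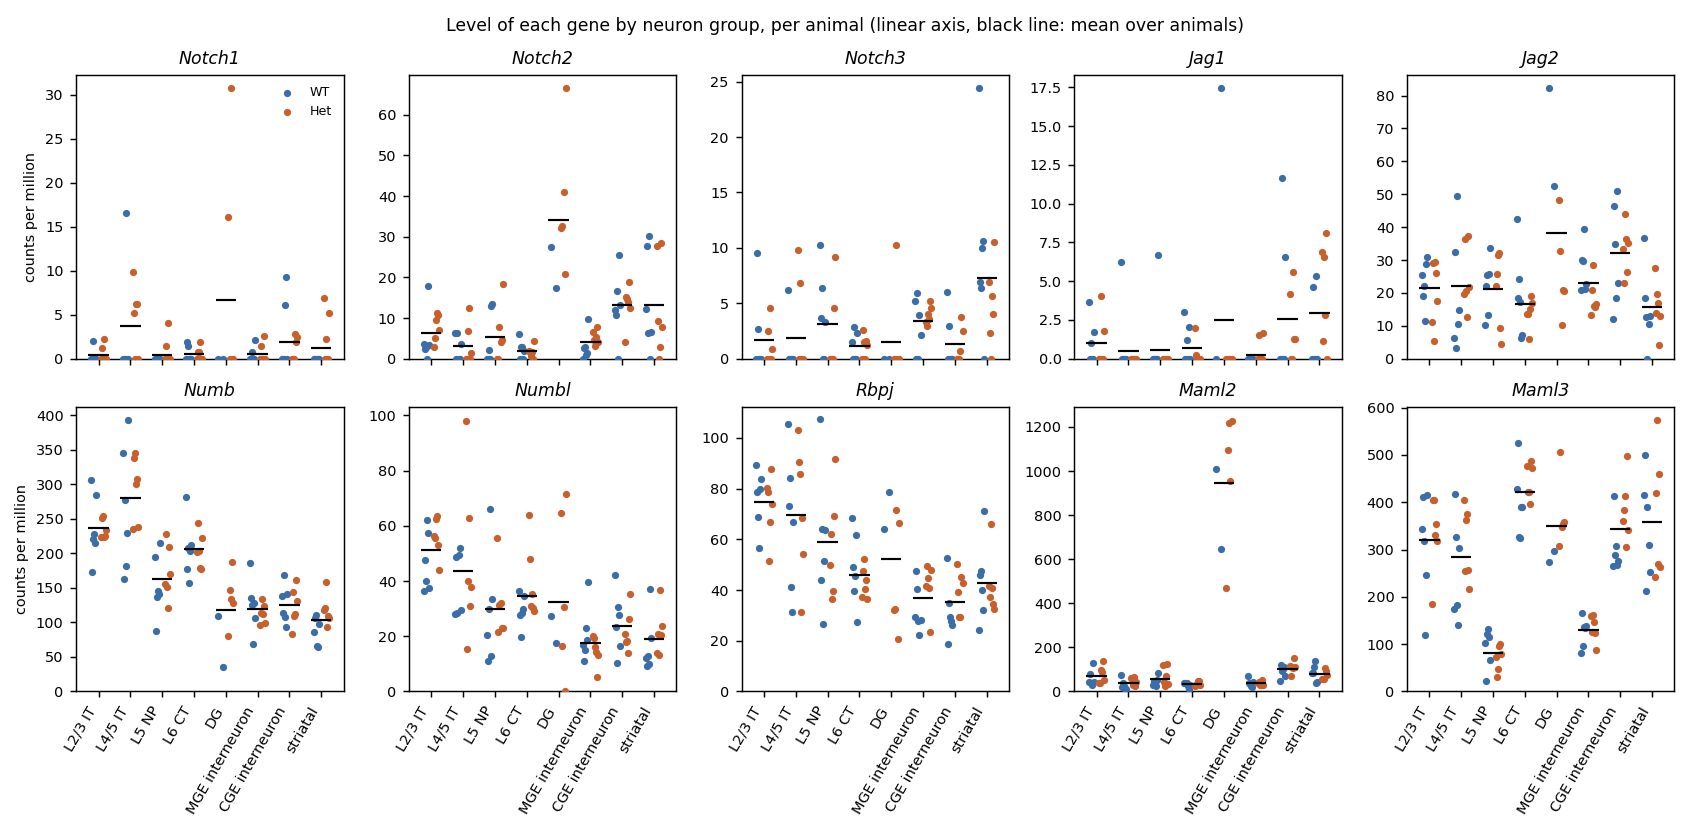
Level of each of the 10 genes (CPM, linear axis from 0) in 8 groups of neurons set by layer and interneuron markers, 1 point per animal with 10 or more nuclei of the group, colored by genotype, with a line at the mean over animals. The dentate gyrus (DG) group has the highest Maml2 mean, 946 ± 289 CPM, and Maml3 is lowest in the L5 NP and MGE interneuron groups.

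Within the neurons, 8 narrower groups were formed by markers: layer 2/3 and layer 4/5 intratelencephalic (L2/3 IT, L4/5 IT), layer 5 near-projecting (L5 NP) and layer 6 corticothalamic (L6 CT) neurons, dentate gyrus (DG) neurons, interneurons of the medial and caudal ganglionic eminence (MGE, CGE), and striatal neurons. Of the 9578 excitatory-like nuclei, the L2/3 IT group held 1375, L4/5 IT 516, L5 NP 537, L6 CT 2207 and DG 172. The rest matched no group. Maml2 was at 946 ± 289 CPM in the DG group (SD, n = 7 animals, range 468 to 1228), against 101 ± 27 in the CGE interneuron group, the next in order, and 32.2 ± 9.5 in the L6 CT group. The highest value of any animal in another group was 150 CPM, in the CGE group, so the DG values did not overlap with those of the other groups. How many of all genes set the DG group apart in this way was not counted. The DG group exceeded the CGE group in 7 of 7 animals, which did not pass (exact paired permutation p = 0.0156, the smallest that 7 animals allow, adjusted p = 0.127). With nuclei over the upper depth limits added, the DG mean was 303 CPM (range 19.7 to 655), against 102 in the CGE group (67.1 to 144), and the ranges overlapped. Notch2 also had its highest mean in the DG group, 34.0 ± 16.4 CPM (SD, n = 7) on 17.5 counts. The DG group exceeded the striatal group, the next in order for Notch2, in 6 of 7 animals, which did not pass (exact paired permutation p = 0.03125, adjusted p = 0.226). Among groups present in all 12 animals, Notch2 in the CGE group (13.1 ± 6.5) exceeded that in the L2/3 IT group (6.402 ± 5.073) in 11 of 12 animals (exact paired permutation p = 0.000977, adjusted p = 0.0317).

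Maml3 split the groups another way. It was at 422 ± 61 CPM in the L6 CT group, 359 ± 117 in the striatal group, 343 ± 72 in the CGE group, 284 ± 94 in the L4/5 IT group, 130 ± 29 in the MGE interneuron group and 81.9 ± 35.6 in the L5 NP group (SD, n = 12). The fall from the L4/5 IT to the MGE group was seen in 12 of 12 animals (exact paired permutation p = 0.000488, adjusted p = 0.0317). Numb had higher means in the layer groups than in interneurons, with 280 ± 71 CPM in the L4/5 IT, 236 ± 34 in the L2/3 IT and 206 ± 33 in the L6 CT group against 125 ± 26 in the CGE and 119 ± 28 in the MGE group. The L5 NP group lay between them at 163 ± 42 CPM and overlapped with both interneuron groups, and its step over the CGE group did not pass (10 of 12 animals, exact paired permutation p = 0.00879, adjusted p = 0.104). L2/3 IT exceeded L6 CT in 11 of 12 animals (exact paired permutation p = 0.000977, adjusted p = 0.0317). Numbl had a like order, from 51.4 ± 9.9 CPM in the L2/3 IT to 17.7 ± 8.3 in the MGE group, but no neighbouring pair of groups passed for it.

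Over all 10 genes and both sets of units, 6 of 130 neighbouring pairs in the order of levels passed after adjustment, all of them named above. Pairs with microglia-like nuclei could not pass, since 5 shared animals allow no p below 0.0625 and 2 shared animals none below 0.5. Vascular-like nuclei shared at most 7 animals with a neighbour, and none of their pairs passed after adjustment; for Maml3 they exceeded OPC-like nuclei in 7 of 7 animals (exact paired permutation p = 0.0156, adjusted p = 0.127).

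**Figure D3:**
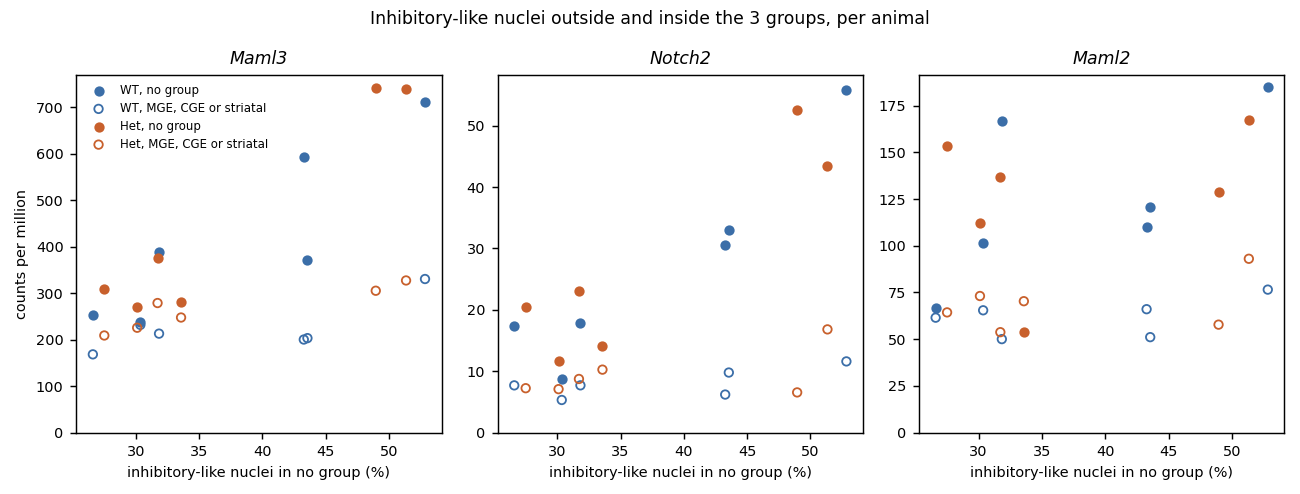
Level of Maml3, Notch2 and Maml2 (CPM) in inhibitory-like nuclei outside and inside the MGE, CGE and striatal groups, per animal, against the percentage of inhibitory-like nuclei that fell in no group. The 3 animals with the highest percentage also hold the highest Maml3 level outside the groups, 711 to 742 CPM.

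The spread of Maml3 in inhibitory-like nuclei was wider in the nuclei that matched none of the 3 inhibitory groups than in the others. The former made up 26.6 to 52.8% of the inhibitory-like nuclei per animal, 38.1 ± 10.05% in WT and 37.2 ± 10.3% in Het mice (SD, n = 6 each). Maml3 in them was at 439 ± 199 CPM with a range of 238 to 742, against 245 ± 53 CPM and 168 to 330 in the grouped nuclei (SD, n = 12). Its mean was thus also higher outside the groups. The animals with the largest shares, WT male 2 (52.8%), Het female 2 (51.3%) and Het male 3 (48.9%), had 711, 739 and 742 CPM. The same 3 animals were also the highest inside the groups, at 330, 327 and 305 CPM against 168 to 279 in the other 9. Notch2 was also more spread outside the groups, with 8.80 to 55.8 CPM there and 8.74 ± 3.12 CPM inside, and Maml2 ran from 53.6 to 185 CPM outside against 65.2 ± 12.1 inside. Inside the groups Het male 3 held 6.54 CPM of Notch2 and 57.8 of Maml2, so the same 3 animals did not lead there. Meis2, Tshz1 and Pbx3, chosen after their values were seen, averaged 1105, 258 and 1257 CPM outside the groups and 383, 68.7 and 312 inside. Between the genotypes, 0 members were called inside the groups (0.114% of genes) or outside them (0%). Whether a further kind of nucleus sets these levels was not tested.

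For each member the 3 genes with the most similar pattern were taken by Pearson's r over the 15 classes and groups, among 14163 genes. The r was that of log2(CPM + 1), with counts pooled over animals. These values describe patterns over units that share libraries and, since the neuron groups lie within the neuron classes, also nuclei. For low genes they rest on few counts. Notch1 lay closest to Mfsd2a (r = 0.97), a lipid transporter, which was also among the 3 closest to Maml2 (0.94) beside the transcription factor Zbtb20 (0.93). Notch2 lay closest to Kmt2d (0.95), Notch3 to Bmp6 (0.94), Jag1 to Gm43302 (0.95), Jag2 to Trpc4 (0.95), Numb to Gm45640 (0.89), Numbl to Rnps1 (0.93) and Rbpj to Vps4b (0.94). The closest genes to Maml2 and Maml3 lay inside their own gene bodies on the same strand: Gm47087 (0.99, chr9:13308214-13312446) in Maml2, and C130089K02Rik (0.95, chr3:52057285-52064244) and 5430420F09Rik (0.92, chr3:52071589-52073387) in Maml3. Reads of these overlapping genes cannot be told apart with certainty from those of the host.

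The comparison the study was built for, Het against WT, was run on sums per animal in all nuclei and in each class or group with at least 3 animals per genotype, 13 fits in all, where a call needed an adjusted p below 0.05 and a log2 fold change beyond 0.2 in either direction. No member was called in any of them: 57 tests of members gave 4 with an unadjusted p under 0.05 and 0 calls by edgeR's quasi-likelihood test, and 2 and 0 by DESeq2, which gave 16 of its adjusted values as NA. Over all genes in the same 13 fits, 6.32% of tests had an unadjusted p under 0.05 by edgeR, so the 4 of 57 lie near the background. The background was as sparse, with 0% of genes called in all nuclei, 0.174% in excitatory-like nuclei, 0% in inhibitory-like, astrocyte-like, oligodendrocyte-like and OPC-like nuclei, 0.264% in the L6 CT, 0.0377% in the MGE and 0.0748% in the CGE group, and 0% in the L2/3 IT, L4/5 IT, L5 NP and striatal groups. DESeq2 called 0.162% of genes in all nuclei, 0.435% in excitatory-like and 0.01% in inhibitory-like nuclei, 0.363% in the L6 CT, 0.0943% in the MGE, 0.15% in the CGE and 0.0691% in the striatal group, and 0% in the others. In all nuclei the 10 members had log2 fold changes from -0.15 (Jag2) to 0.26 (Notch1) with a median of 0.11, and the median of all 16658 genes tested was -0.00. In such sums, more cells of a type and more RNA per cell cannot be told apart. Within the excitatory-like nuclei the 7 members tested had a median of 0.12 (all genes -0.01), and within the inhibitory-like nuclei -0.03 (all genes -0.00).

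**Figure D4:**
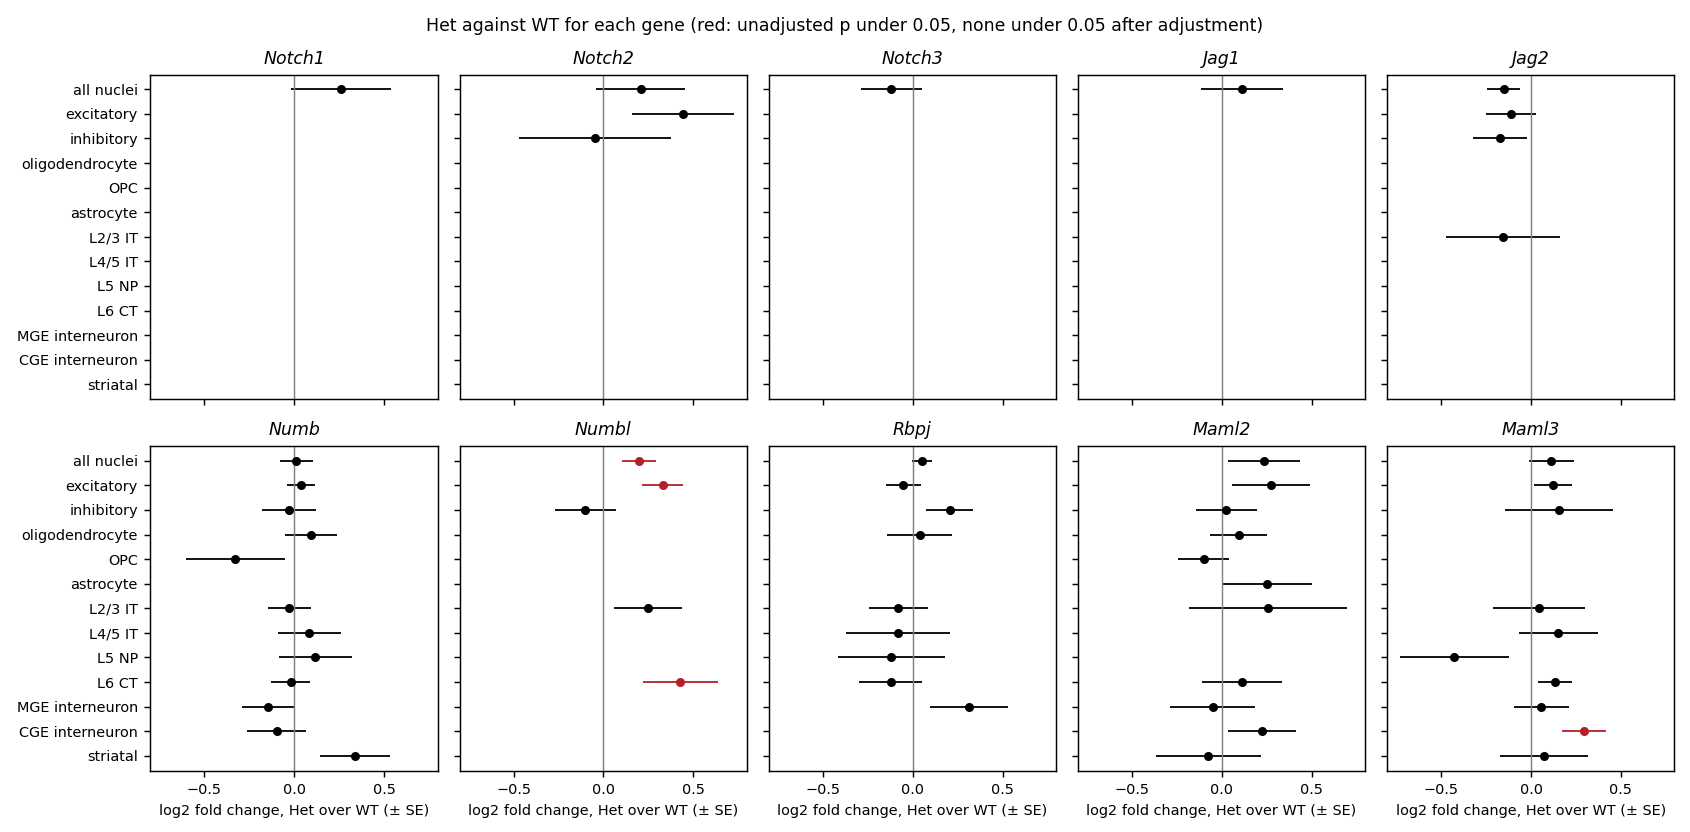
Log2 fold change of Het over WT with its SE for each of the 10 genes in each class or group where it could be tested, with edgeR's quasi-likelihood test; red marks an unadjusted p under 0.05. The estimates lie around 0, and the red ones are Numbl in all nuclei, excitatory-like nuclei and the L6 CT group, and Maml3 in the CGE group.

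Of the 4 tests with a low unadjusted p, 3 were of Numbl, in units that share nuclei. The L6 CT group lies within the excitatory-like class, and that class within all nuclei. The study, with more nuclei and DESeq2 on its own clusters, names Numbl among genes higher in Het mice at this age. In excitatory-like nuclei here, the log2 fold change of Numbl was 0.33 (SE 0.11, adjusted p = 0.377, edgeR), in the L6 CT group 0.43 (SE 0.21, adjusted p = 0.494) and in all nuclei 0.20 (SE 0.09, adjusted p = 0.846). In excitatory-like nuclei the WT males had 37.2, 35.5 and 28.0 CPM and the WT females 45.1, 42.2 and 38.0 CPM. The Het males had 59.4, 55.4 and 41.4 CPM and the Het females 46.1, 43.7 and 37.6 CPM. The 2 highest values of all were Het males and the lowest a WT male, and the genotypes overlapped, at 37.7 ± 5.9 in WT against 47.3 ± 8.5 in Het (SD, n = 6 each; exact permutation p = 0.0476, adjusted over all such tests 0.675). The other low p was that of Maml3 in the CGE group, 303 ± 56 CPM in WT and 383 ± 67 in Het mice (SD, n = 6 each), a log2 fold change of 0.29 (SE 0.12, adjusted p = 0.602, edgeR). All 6 Het animals lay above the WT median there, while the highest WT value, 414 CPM in WT male 2, exceeded 5 of the Het values.

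Exact permutation tests on the CPM values of the members gave 3 further low p-values, none of which held after adjustment over all such tests (adjusted p = 0.675 for each). Jag2 in the MGE group averaged 27.3 ± 7.2 CPM over WT and 18.5 ± 5.4 over Het mice (SD, n = 6 each; exact permutation p = 0.0411). Numb in the striatal group averaged 88.1 ± 20.2 CPM over WT and 118 ± 22 over Het mice (SD, n = 6 each; exact permutation p = 0.0325). Rbpj in astrocyte-like nuclei did not overlap between 3 WT (21.9 ± 19.0 CPM) and 5 Het animals (80.9 ± 39.8 CPM, SD), on 0 to 7 counts per animal (exact permutation p = 0.0357). These tests covered the members and Myt1l alone, so no share of all genes stands beside them or beside this lack of overlap.

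**Figure D5:**
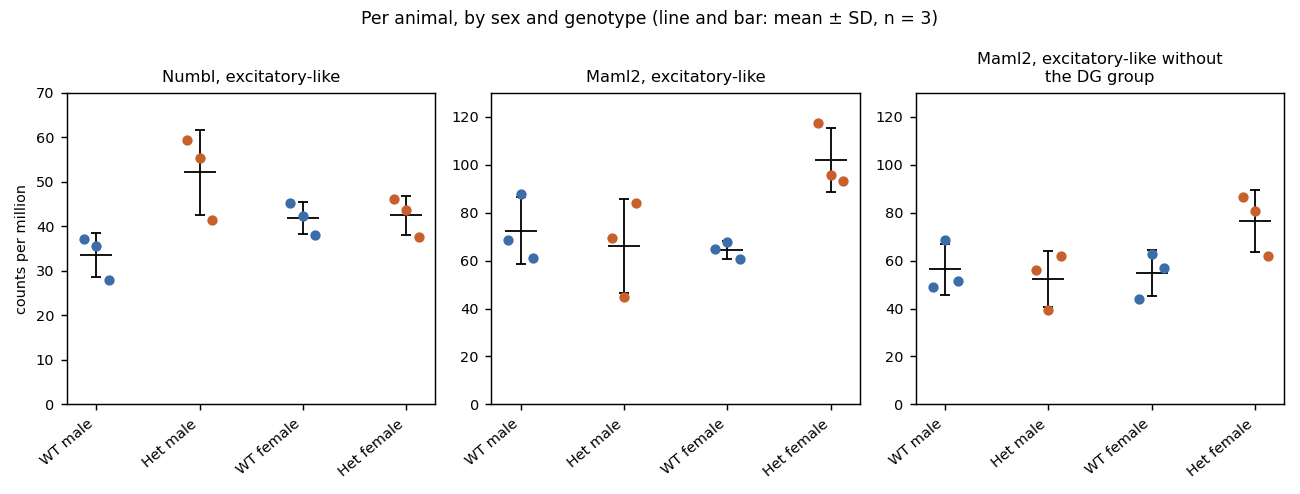
Numbl and Maml2 in excitatory-like nuclei, and Maml2 without the dentate gyrus group (CPM, linear axis from 0), 1 point per animal by sex and genotype, with the mean ± SD of 3 animals. Het males lie above WT males for Numbl, and Het females above WT females for Maml2, while without the DG group the female genotypes overlap. How many of all genes separate 3 from 3 animals in this way was not counted.

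The sexes were then compared for the size of the genotype effect. Of 56 interaction tests on members 4 had an unadjusted p under 0.05 and 0 an adjusted one (lowest adjusted p = 0.648, edgeR). Over all genes, 705 of 11486 had an unadjusted p under 0.05 in excitatory-like nuclei, 615 of 16658 in all nuclei and 329 of 9970 in inhibitory-like nuclei. In the L6 CT group 298 of 6067 genes had one, and in the striatal group 154 of 2893. The interaction was called for 0.00871% of all genes in excitatory-like nuclei, 0.123% in the L2/3 IT and 0.0395% in the L4/5 IT group and 0% elsewhere. For Numbl in excitatory-like nuclei the log2 fold change was 0.61 (SE 0.15, adjusted p = 0.223) in males alone and 0.04 in females alone, and the difference of 0.57 (SE 0.21) had an unadjusted p of 0.0113 and an adjusted p of 0.691. Every Het male lay above every WT male, while the female genotypes overlapped. The share of all genes that separated so was not counted. For Maml2 the direction by sex was the other way.

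Maml2 in excitatory-like nuclei, from counts rounded to whole numbers, stood at 117, 95.6 and 93.0 CPM in Het females and at 64.9, 67.8 and 60.6 CPM in WT females. In females alone, a comparison added after the data were seen, this was a log2 fold change of 0.66 (SE 0.12, adjusted p = 0.0177, edgeR), the only member called in any such subset, beside 0.103% of all genes. Males had -0.20 (0.0871% of genes called, 0 members), with 68.5, 87.9 and 61.1 CPM in WT and 69.3, 45.0 and 84.0 CPM in Het males. The difference between the sexes was -0.86 (SE 0.29, adjusted p = 0.691). Nuclei of the DG group, where Maml2 is at its neuronal highest, made up 2.76, 1.72 and 2.73% of the excitatory-like nuclei of Het females. In WT females they made up 1.90, 1.71 and 0.87%. These shares overlapped between the genotypes, and their part in the Maml2 difference was not tested. Any DG nuclei among the excitatory-like nuclei that matched no group were not sought. Without the DG group the female fold change was 0.45 (SE 0.14, adjusted p = 0.359), no longer called beside 0.104% of genes, with 86.6, 80.6 and 62.0 CPM in Het and 44.1, 62.9 and 56.9 CPM in WT females, which overlapped. Neither males alone (0.0875% of genes), both sexes together (0.123%) nor the interaction (0.00876%) gave a called member without the DG group. Of the narrower groups, the L6 CT group had a Maml2 interaction of -1.33 (SE 0.41, adjusted p = 0.648) and the striatal group -1.30 (SE 0.54, adjusted p = 0.866). Values of the other groups are not given here.

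Of the 45 other pathway genes, 35 could be tested in all nuclei, 30 in excitatory-like and 29 in inhibitory-like nuclei. Over the 13 fits, 191 tests gave 7 with an unadjusted p under 0.05, where 6.32% of tests of all genes had one, and 0 calls in either direction. The lowest were Snw1, a nuclear cofactor of RBPJ, at -0.35 (SE 0.12, adjusted p = 0.412) in excitatory-like nuclei and Adam17, a protease that can cut Notch, at 0.64 (SE 0.25, adjusted p = 0.359) in the L6 CT group. Spen, a corepressor partner of RBPJ, had positive estimates with an unadjusted p under 0.05 in 2 groups, 0.59 (SE 0.24) in the L4/5 IT and 0.53 (SE 0.22) in the striatal group. The median log2 fold change of the list was -0.01 in all nuclei and 0.04 in excitatory-like nuclei, against -0.00 and -0.01 for all genes.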

How the data were processed

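Nuclei from 12 P21 cortices were barcoded with a Scale Biosciences kit. The authors used ScaleRna for alignment (mm10) and UMI counting, called cells with CellFinder and deposited 1 matrix per animal; the deposited values are expected counts, not all whole (92.6% of entries are), since reads shared by genes were split. Whether intronic reads or strand were used is not given in the sources used here. The submitters' processing notes name Seurat 4.3.0 and DESeq2 1.38.3.

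Barcodes with 800 to 6000 UMIs, 300 to 3000 genes, at most 1% mitochondrial counts and log genes over log UMIs no lower than 0.9 were kept (34890 of 78743; 33586 exceeded 6000 UMIs), and the 5% with the highest Scrublet score in each animal were removed as doublets (1749; scanpy 1.11.5). A nucleus joined a class by UMIs of at least 2 markers (3 for glia), with the next class below 0.67 of the leading score. Counts were summed per animal and class, rounded, and tested with edgeR 4.0.16 (TMM, filterByExpr, quasi-likelihood test, robust, genotype as the only term, Benjamini-Hochberg adjustment over all genes tested); DESeq2 1.42.0 was an alternative. Animals are separate mice. Neighbours in the order of levels were compared by exact two-sided sign-flip permutation within animals, and genotypes by exact two-sided permutation. Scripts were tested on simulated data.

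Other settings were DESeq2 size factors, no filter on low counts, no upper depth limits, no doublet removal, a stricter class margin, sex as a term, a block of sex and replicate number, and each animal left out. Single-sex fits, fits without the DG group and splits of the inhibitory-like nuclei were chosen after seeing the data. The 10 members, the markers and the pathway list were chosen with earlier results of these data known. Genes named are the members, Myt1l, pathway genes that passed a test or had a low unadjusted p, and the 3 genes most like each member; Meis2, Tshz1, Pbx3 and the overlapping genes were named after their values were seen. Gene positions are from GENCODE vM21 (54587 of 55335 IDs matched). Depth is the count total per animal, and limits from zeros and few counts cover counting error only. Numbers of nuclei are below those the study states for this age, and the difference was not resolved here.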

Additional observations from a re-analysis of the deposited data

Results flagged for a closer look

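Values of a member in a genotype of 4 to 10 animals were compared with the spread of the group by the gap of the most extreme animal. Of 68 groups, 5 held an animal that stood apart, where chance gives about 1 in 20 groups (3.4 here). WT male 2 was high in 3 of them: Maml2 in excitatory-like nuclei at 88.1 CPM (other WT animals 60.5 to 68.6), Maml2 in inhibitory-like nuclei at 131 CPM (62.9 to 84.9) and Maml3 in all nuclei at 380 CPM (224 to 280). The same animal had the largest share of inhibitory-like nuclei in no group, 52.8%. Jag1 in vascular-like nuclei was at 102 CPM in Het female 2, on 4 counts, with 0 to 19.97 in the other Het animals. Notch2 in all nuclei was at 8.41 CPM in Het male 2, below the 15.3 to 19.2 of the other Het animals.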

How the results depend on the processing

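No member was called between the genotypes under any alternative except 1, Maml2 in excitatory-like nuclei of females alone (0 to 1 called), and leaving out each animal in turn gave 0 to 0 in each of the 13 fits, beside 0 to 0.451% of genes. Without the upper depth limits, mean levels moved to 405 CPM for Notch2 in vascular-like, 916 for Maml2 in OPC-like and 632 for Maml3 in microglia-like nuclei, and the class contrast called 3 members in excitatory-like nuclei, beside 26.4% of genes; Maml3 was lost and Numbl did not pass the filter on low counts there. Without the filter on low counts the class contrasts called 6 members in astrocyte-like (7.002% of genes), 4 in oligodendrocyte-like (13.8%) and 3 in vascular-like nuclei (8.63%). In 5 of 87 rechecks a class call was lost, all with an unchanged sign: Maml3 in excitatory-like (0.98) and inhibitory-like nuclei (0.76) without the upper limits, Notch2 in inhibitory-like nuclei with DESeq2 size factors (-0.99) and no filter (-0.65), and Rbpj there with no filter (-0.75).

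Log2 fold changes of Het against WT that were not called changed sign in places; the cause was not tested. Without the upper limits they were -0.12 for Notch1 and -0.31 for Jag1 in all nuclei, 0.0013 for Rbpj and 0.069 for Jag2 in excitatory-like nuclei, and -0.11 for Maml2 and 0.022 for Numb in inhibitory-like nuclei. In males alone they were -0.0068 for Numb in all nuclei, -0.20 for Maml2 in excitatory-like nuclei, and -0.0056 for Maml3, 0.024 for Numbl and -0.27 for Maml2 in inhibitory-like nuclei. In females alone they were 0.14 for Notch3 in all nuclei, 0.054 for Rbpj and -0.015 for Numb in excitatory-like nuclei, and 0.25 for Notch2 and 0.14 for Numb in inhibitory-like nuclei. Notch2 in inhibitory-like nuclei was also 0.027 with DESeq2 and 0.11 with a stricter class margin.

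Leaving out each animal in turn, the ranges that crossed 0 were -0.043 to 0.072 for Numb in all nuclei, -0.11 to 0.0055 for Rbpj and -0.0094 to 0.092 for Numb in excitatory-like nuclei, and -0.29 to 0.36 for Notch2, -0.011 to 0.37 for Maml3, -0.12 to 0.19 for Maml2 and -0.12 to 0.055 for Numb in inhibitory-like nuclei. Replicate numbers did not pair the animals, with correlations of same-numbered animals from -0.33 to 0.10. With sex and replicate number as a block, 0 members were called, beside 0 to 0.429% of genes, and Notch2 in inhibitory-like nuclei stood at 0.0090, the only sign that changed. Depth limits the rare classes: Jag1 and Notch3 rest on 10 and 14 counts in vascular-like nuclei, and the microglia-like, vascular-like and DG units, with 2 WT animals each, were tested between genotypes within the limits only in 1 sex or with 1 Het animal left out, where 0 members were called beside 0 to 0.994% of genes.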
